A study of Mus musculus with 8 samples.

Results

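The genes described are 55 members of the mouse Wnt pathway, from ligands and receptors to modulators and targets, without β-catenin and GSK3. They were taken from a list of gene names, with no threshold on measured values, drawn up when earlier results of these data were known. Where the array annotation gives a gene several probe sets of its own, the brightest on average over the 8 hearts stands for it. All 55 had such a probe set, among 18194 genes of the array. The other 67 probe sets of 40 members served as a check.

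RNA came from whole hearts of late embryos (E18.5), 1 array per heart. The 3 mutant hearts were homozygous for the floxed Lsd1 allele (2lox/2lox), and the 5 hearts set against them were wild-type littermates. No Cre was named for either group. The 2lox allele carries a pair of point mutations in the tower domain of Lsd1, the protein's binding arm, and still makes the mutated protein. The genotype label reads knock-out, while the source name calls these hearts hypomorphic. Values are log2 expression levels, so a difference of 1 is a doubling. They are given in the order of heart number, 1 to 3 for 2lox/2lox and 1 to 5 for wild-type.

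Wnt ligands are lipid-modified proteins that bind Frizzled receptors. With Lrp5 or Lrp6 as co-receptor they halt the complex of Axin and Apc that destroys β-catenin, which then works with Tcf and Lef factors at target genes. Other Wnts, such as Wnt5a and Wnt11, act mainly through Ror2, Ryk and Dishevelled on cell polarity and movement. In the embryonic heart the pathway takes part in the growth of heart muscle progenitors, the outflow tract and the valve cushions. Many targets, among them Axin2, Nkd1 and Dkk1, encode inhibitors of the pathway, so their RNA is often read as a measure of its activity.

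The arrays were alike in median level and in correlation. Their medians lay between 5.03 and 5.1, and any pair of hearts correlated at 0.992 to 0.997. Kdm1a, which encodes Lsd1, read 9.44, 9.53 and 9.55 in 2lox/2lox hearts and 10.36, 10.34, 10.29, 10.32 and 10.26 in wild-type hearts. Its fold change was -0.81 (log2, limma adjusted p = 0.000515), and its values parted all 8 hearts into the groups of the labels. The 6 heart muscle genes checked averaged 13.43 to 13.55 per 2lox/2lox heart and 13.37 to 13.49 per wild-type heart. The difference between the 3′ and 5′ control probes of Actb and Gapdh, a sign of RNA quality, was 0.52, 0.5 and 0.33 in 2lox/2lox hearts and 0.33, 0.34, 0.38, 0.32 and 0.34 in wild-type hearts. Mutant hearts 1 and 2 lay above every wild-type heart, so this sign of RNA quality overlaps with genotype. Of 8 myeloid markers, Cybb and Lgals3 passed the test, both higher in 2lox/2lox hearts. Of 4 skeletal muscle markers Tnni2 did.

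Most of the members read above the median of all probe sets in the E18.5 heart. Of the 55 members, 21 averaged above the upper quartile of all probe sets in wild-type hearts (7.37), and another 25 lay between the median (5.07) and that quartile. A further 8 lay between the lower quartile (4.22) and the median, and only Dkk1, a secreted inhibitor of Lrp5 and Lrp6, averaged under the lower quartile. The quartiles are of all probe sets, and taking the brightest of each gene places genes higher among them. By the mean of all 8 hearts, the brightest probe set lay above the median for 45 of 55 members and 11974 of 18194 genes. No detection calls were used, so 17 measured genes of other organs (retina, pituitary, pancreas, kidney, breast) served as a guide to what a probe set reads where little RNA is known. They averaged 3.57 to 6.30 in wild-type hearts, with the pituitary hormone gene Pomc highest. Of the members, 32 read above that highest value and 23 did not. The share of all genes above it was not counted, so this count and those by role are not set against the array. Probe sets differ in how well they bind, so these places do not rank the genes by amount of RNA. Nor does a place under the highest off-tissue gene show that no RNA was read. Uty, a Y chromosome gene, read 6.30, 5.79, 6.06 and 6.17 in wild-type hearts 1, 3, 4 and 5. It read 3.66 in wild-type heart 2, which had female levels of Xist. Cybb passed the test from a wild-type mean of 4.71.

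The share of members above the off-tissue genes varied with role. Of the 14 receptors, 11 read above the off-tissue genes, and of the 10 ligands, 4 did (Wnt4, Wnt5a, Wnt7b and Wnt11). Of the 14 target and feedback genes, 7 did: Lef1, Znrf3, Bambi, Apcdd1, Tnfrsf19, Ccnd1 and Myc. The other 7 (Axin2, Nkd1, Notum, Sp5, Lgr5, Rnf43 and Dkk1) did not, and these include the genes most used as readouts of β-catenin signalling.

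**Figure D1:**
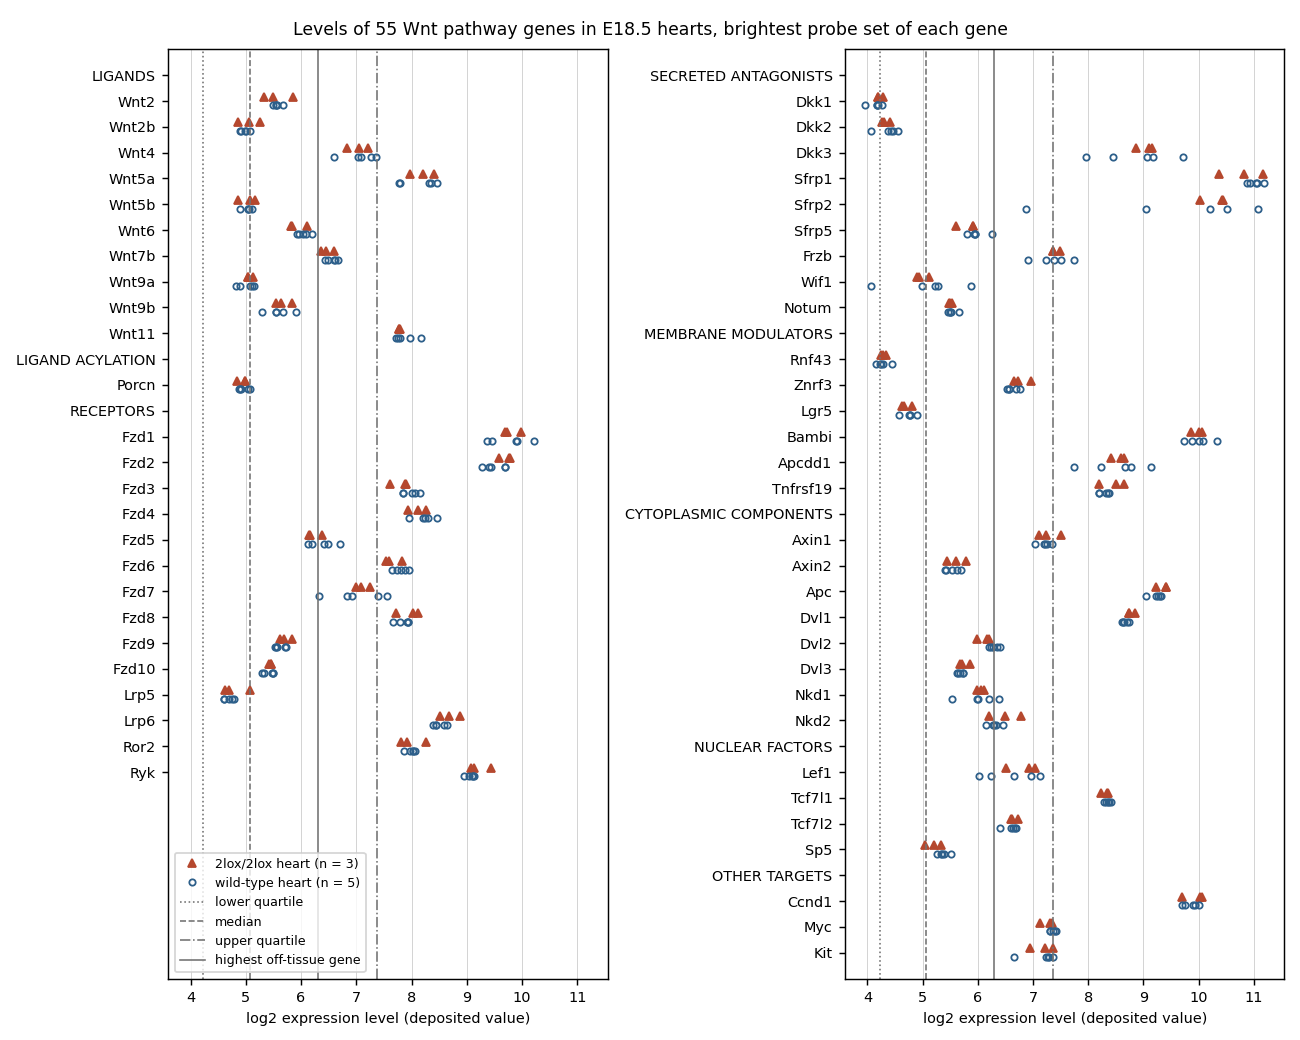
Log2 expression level (x axis) of each of the 55 members (rows, grouped by role) in the 3 2lox/2lox hearts (filled triangles) and 5 wild-type hearts (open circles), with lines at the quartiles of all probe sets' wild-type means and at the highest off-tissue gene (6.30). For all members but Dvl2 the triangles overlap the range of the circles, and the widest spread of circles is that of Sfrp2, 6.87 to 11.07.

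No member passed the test between genotypes. In limma, 0 of 55 members reached an adjusted p of 0.05, against 0.0798% of all probe sets (36 of 45101), and the smallest adjusted p among members was 0.415. At an unadjusted p under 0.05, 1 member was lower in 2lox/2lox hearts (Dvl2) and 0 were higher. Over all genes by the same rule, 4.41% were lower and 5.82% higher. Dvl2 was also the 1 member whose 2lox/2lox hearts all lay below the wild-type range, as 2.81% of all genes did. No member lay wholly above that range, as 3.16% of all genes did. In this fit the members' counts did not exceed the array's background.

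The members' median fold change was 0.03 on the log2 scale (33 positive, 22 negative), against -0.005 over all genes. Of the 55 changes, 54 were smaller than 0.25 in either direction, and Sfrp2 (0.75) was the exception. The 95% interval lay within 0.5 of 0 for 48 members and within 1 for 54. Changes beyond a doubling were therefore outside the interval for all members but Sfrp2, while smaller ones remain possible for each.

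**Figure D2:**
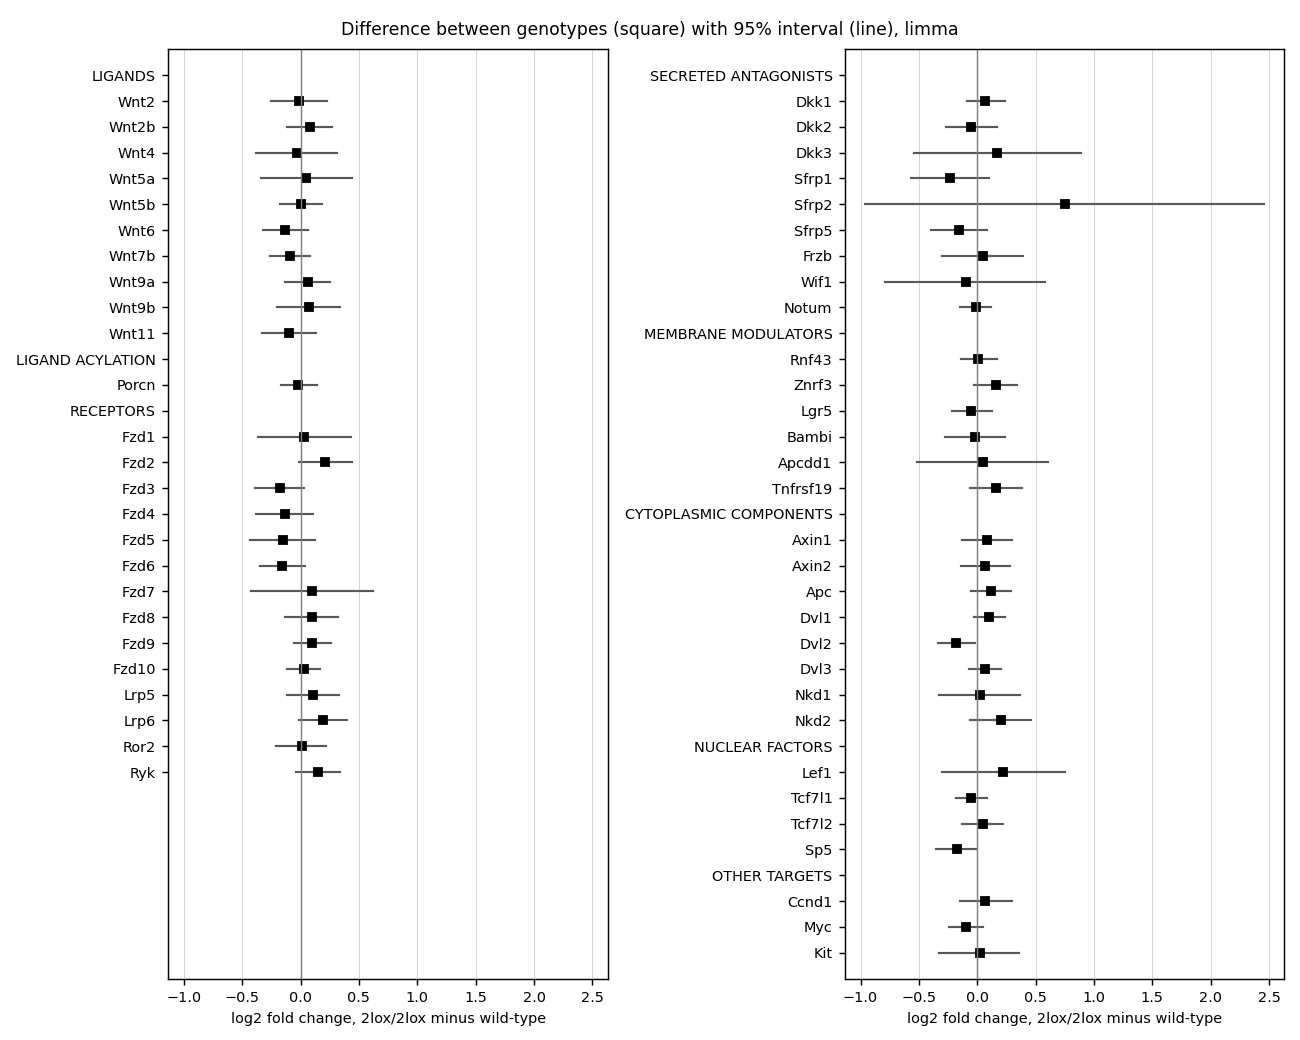
Log2 fold change, 2lox/2lox minus wild-type (squares), with the 95% interval from limma (lines) for each of the 55 members, grouped by role. All intervals but that of Dvl2 reach or cross 0, and the interval of Sfrp2 (-0.96 to 2.46) is the widest.

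Among the 10 ligands, 4 were positive and 6 negative, between -0.13 (Wnt6) and 0.08 (Wnt2b), and none passed the test. Wnt5a, which drives polarity signalling in the outflow tract, had the brightest probe set of the group. It read 8.41, 8.21 and 7.97 in 2lox/2lox hearts and 8.36, 8.47, 7.78, 8.31 and 7.79 in wild-type hearts. The groups overlapped fully, and wild-type hearts 3 and 5 were the lowest of all 8. Wnt11, needed for outflow tract and ventricle formation, read 7.78, 7.78 and 7.79 in 2lox/2lox hearts, against 7.79, 8.18, 7.75, 7.98 and 7.71 in wild-type hearts. The 2lox/2lox hearts were almost equal and lay among the lower wild-type hearts (log2 fold change -0.10 ± 0.10 SE, adjusted p = 0.797). Wnt4 lies near Kdm1a on chromosome 4, with 8 protein-coding genes between them, and averaged 7.03 ± 0.19 in 2lox/2lox and 7.06 ± 0.29 in wild-type hearts (SD, n = 3 and 5). Wnt7b, known from lung and vessel development, averaged 6.47 ± 0.12 in 2lox/2lox and 6.55 ± 0.09 in wild-type hearts. Wnt2, Wnt2b, Wnt5b, Wnt6, Wnt9a and Wnt9b all read within the off-tissue range, with wild-type means of 4.98 to 6.04. Of these, Wnt9b is a signal from the lining of the developing valves. Porcn, the enzyme that attaches the lipid to Wnt proteins, read 4.99, 4.98 and 4.84 in 2lox/2lox hearts and 4.89, 5.03, 4.87, 5.07 and 4.91 in wild-type hearts. Its groups overlapped, under the median of the array.

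Of the 14 receptors and co-receptors, 10 were positive and 4 negative, and 5 of the 10 members with the smallest p were of this group (Fzd2, Lrp6, Fzd3, Ryk and Fzd6). Fzd2 read 9.76, 9.79 and 9.59 in 2lox/2lox hearts and 9.69, 9.69, 9.28, 9.44 and 9.41 in wild-type hearts. Mutant hearts 1 and 2 lay just above the highest wild-type hearts and heart 3 among them (0.21 ± 0.10, adjusted p = 0.492). Lrp6, the main co-receptor for β-catenin signalling, read 8.88, 8.52 and 8.68 in 2lox/2lox hearts and 8.59, 8.65, 8.45, 8.45 and 8.38 in wild-type hearts. Heart 1 of the 2lox/2lox group was the highest of all and heart 2 lay within the wild-type range (0.19 ± 0.09, adjusted p = 0.494). The second Lrp6 probe set gave 0.04.

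Fzd3 and Fzd6, Frizzleds with parts in planar cell polarity, were lower on average. Fzd3 read 7.90, 7.89 and 7.61 in 2lox/2lox hearts against 8.16, 8.06, 7.84, 8.0 and 7.84 in wild-type hearts (-0.18 ± 0.10, adjusted p = 0.543). Only 2lox/2lox heart 3 lay below every wild-type heart. Fzd6 read 7.59, 7.82 and 7.53 in 2lox/2lox hearts against 7.81, 7.96, 7.73, 7.64 and 7.88 in wild-type hearts (-0.16 ± 0.09, adjusted p = 0.584), with hearts 1 and 3 of the mutants lowest. Ryk, a kinase-like Wnt co-receptor, read 9.44, 9.14 and 9.07 in 2lox/2lox hearts against 9.04, 9.11, 9.09, 8.95 and 9.13 in wild-type hearts. Its average change of 0.15 came mostly from 2lox/2lox heart 1. Fzd1 had the brightest receptor probe set, at 9.99, 9.70 and 9.72 in 2lox/2lox hearts against 9.91, 10.22, 9.37, 9.90 and 9.45 in wild-type hearts. Its mutant hearts all lay inside the wild-type range. The remaining receptors (Fzd4, Fzd5, Fzd7, Fzd8, Fzd9, Fzd10, Lrp5 and Ror2) changed by -0.15 (Fzd5) to 0.11 (Lrp5), and Fzd9, Fzd10 and Lrp5 read within the off-tissue range.

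The 9 secreted antagonists included the 3 members with the widest wild-type ranges (Sfrp2, Wif1 and Dkk3), and none passed the test. Sfrp1, a decoy that binds Wnts, read 10.36, 11.16 and 10.82 in 2lox/2lox hearts and 11.19, 11.06, 10.92, 10.87 and 11.03 in wild-type hearts. Heart 1 of the mutants was lowest and heart 2 stood near the wild-type maximum (-0.23 ± 0.15, adjusted p = 0.631). Its relative Sfrp2 had the largest average change of any member, 0.75 ± 0.77 (adjusted p = 0.798, 95% interval -0.96 to 2.46). It read 10.44, 10.02 and 10.42 in 2lox/2lox hearts and 10.51, 11.07, 6.87, 10.20 and 9.05 in wild-type hearts. The mutant hearts lay close together inside the wild-type range, and the change turned on the low wild-type hearts. Leaving out wild-type heart 3 it was 0.09, and leaving out heart 5 as well it was -0.30. Dkk3, a Dickkopf relative, averaged 9.04 ± 0.15 in 2lox/2lox and 8.87 ± 0.69 in wild-type hearts. Frzb, a Wnt decoy first known from cartilage, averaged 7.40 ± 0.07 in 2lox/2lox and 7.35 ± 0.32 in wild-type hearts. Sfrp5, Wif1 and Dkk2 changed by -0.16, -0.10 and -0.05 and read within the off-tissue range.

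Of 8 cytoplasmic components, 7 were positive and 1, Dvl2, negative. Dvl2, 1 of 3 Dishevelled proteins that carry the signal from Frizzled, read 6.20, 6.17 and 5.98 in 2lox/2lox hearts and 6.41, 6.34, 6.20, 6.27 and 6.24 in wild-type hearts. The groups touch at 6.20, where they part only beyond the second decimal, so the separation is slight (-0.18 ± 0.07, adjusted p = 0.415). The second Dvl2 probe set did not follow it, with 4.86, 4.98 and 5.20 in 2lox/2lox hearts against 4.99, 4.90, 4.90, 5.13 and 4.84 in wild-type hearts (0.06). The mean of both probe sets gave -0.06, and after median centring of the arrays the groups overlapped in the brightest probe set too. Dvl1, on chromosome 4 like Kdm1a but with 282 protein-coding genes between them, read 8.73, 8.85 and 8.73 in 2lox/2lox hearts and 8.71, 8.61, 8.63, 8.65 and 8.73 in wild-type hearts (0.10 ± 0.06, adjusted p = 0.571). Its groups met at 8.73, the top of the wild-type range. Nkd2, an inhibitor that binds Dishevelled, read 6.78, 6.20 and 6.50 in 2lox/2lox hearts and 6.33, 6.27, 6.46, 6.29 and 6.14 in wild-type hearts, with mutant hearts 1 and 3 above all wild-type hearts and heart 2 among them. Apc, the scaffold of the destruction complex, read 9.41, 9.41 and 9.23 in 2lox/2lox hearts and 9.30, 9.27, 9.32, 9.05 and 9.23 in wild-type hearts, and its 2 groups overlapped. Axin1 and Dvl3 changed by 0.08 and 0.07.

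Of the 4 nuclear factors, Tcf7l1, which mostly represses targets, had the brightest probe set. It read 8.34, 8.35 and 8.23 in 2lox/2lox hearts and 8.36, 8.38, 8.32, 8.42 and 8.29 in wild-type hearts, a difference of -0.05 with an interval of -0.18 to 0.08. The second Tcf7l1 probe set, nearly as bright, was lower by more. It read 7.72, 7.88 and 8.18 in 2lox/2lox hearts and 8.24, 8.27, 7.92, 8.30 and 8.11 in wild-type hearts. Its difference was -0.24, with an interval of -0.50 to 0.01 (limma adjusted p = 0.485). Tcf7l2, the partner of β-catenin in many adult tissues, averaged 6.65 ± 0.07 in 2lox/2lox and 6.60 ± 0.12 in wild-type hearts. The interval of Tcf7l2 was -0.13 to 0.22, wider than that of the brightest Tcf7l1 probe set. Kit, a receptor of stem cell factor that the study treats as a Wnt target, read 7.22, 7.37 and 6.95 in 2lox/2lox hearts and 7.29, 7.27, 7.23, 6.66 and 7.36 in wild-type hearts. Wild-type heart 4 stood alone at the low end, and the averages hardly differed (0.02 ± 0.16, adjusted p = 0.983).

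The 14 target and feedback genes bear most directly on β-catenin signalling at the RNA level. As 7 of them read within the off-tissue range, they cannot settle whether that signalling differed between genotypes. None of the 14 passed the test (adjusted p 0.470 to 0.977), 9 were positive and 5 negative, and their median change was 0.03. DNA before the start sites of Sp5, Dkk1 and Wnt11 is printed here to show examples of the Tcf/Lef motif. Sp5 and Dkk1 are classic targets, and Wnt11 is not among the 14. Only RefSeq promoter windows (GRCm38.p6) that hold a match were taken, and the matches are in capitals. The motif was searched as CTTTGNN, with A or T at each N, on both strands. Other HMG-box factors such as Sox proteins bind letters that overlap it.
Sp5 (chr2:70474673-70474922, + strand): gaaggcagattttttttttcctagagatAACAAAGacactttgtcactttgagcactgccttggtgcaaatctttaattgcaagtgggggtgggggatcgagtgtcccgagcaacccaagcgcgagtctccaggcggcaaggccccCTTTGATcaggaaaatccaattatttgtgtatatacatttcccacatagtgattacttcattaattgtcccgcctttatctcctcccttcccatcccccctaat
Dkk1 (chr19:30549497-30549646, - strand): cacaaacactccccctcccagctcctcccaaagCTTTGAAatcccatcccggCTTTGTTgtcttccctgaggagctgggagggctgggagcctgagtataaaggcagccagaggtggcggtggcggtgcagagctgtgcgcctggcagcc
Wnt11 (chr7:98834962-98835111, + strand): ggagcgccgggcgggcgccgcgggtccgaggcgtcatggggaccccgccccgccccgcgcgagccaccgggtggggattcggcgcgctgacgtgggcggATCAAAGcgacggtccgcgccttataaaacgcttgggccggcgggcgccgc
The stretches end at the base before the start site. In Sp5 the matches begin 222 and 104 bases before it, in Dkk1 117 and 98 bases, and in Wnt11 51 bases. A window (250 bases before to 50 after the start) was at hand for 35 members, and 8 of them (22.9%) held a match: Wnt5b, Wnt11, Fzd7, Dkk1, Tnfrsf19, Lef1, Tcf7l2 and Sp5. Of the 14 target and feedback genes, 7 had a window and 4 of these held a match. Over all genes 18.9% held a match (16.9% of all windows), so a match is common and is a description of letters, not of a bound site.

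Among the targets that read within the off-tissue range, Sp5, a transcription factor, was lowest relative to wild-type. It read 5.05, 5.20 and 5.34 in 2lox/2lox hearts against 5.26, 5.34, 5.52, 5.38 and 5.35 in wild-type hearts, with mutant hearts 1 and 2 under the whole wild-type range (-0.17 ± 0.08, adjusted p = 0.470). Dkk1 read 4.20, 4.20 and 4.29 in 2lox/2lox hearts against 4.17, 4.20, 4.26, 4.18 and 3.96 in wild-type hearts. These values are at the floor of the array. Axin2, the negative-feedback partner of Apc, read 5.60, 5.79 and 5.44 in 2lox/2lox hearts against 5.62, 5.70, 5.41, 5.53 and 5.43 in wild-type hearts. The Axin2 groups lay across each other (0.07 ± 0.09, 95% interval -0.14 to 0.28). The dimmer Axin2 probe set had the opposite sign, at 4.12, 3.90 and 4.27 in 2lox/2lox hearts against 4.22, 4.36, 4.33, 4.24 and 4.34 in wild-type hearts (-0.20, adjusted p = 0.421), with mutant hearts 1 and 2 under the wild-type range. Notum, an enzyme that strips the lipid from Wnts, read 5.54, 5.50 and 5.48 in 2lox/2lox hearts and 5.50, 5.49, 5.52, 5.66 and 5.46 in wild-type hearts. Lgr5, an R-spondin receptor, read 4.67, 4.63 and 4.81 in 2lox/2lox hearts and 4.57, 4.75, 4.78, 4.89 and 4.77 in wild-type hearts. Both genes overlapped fully. Rnf43, a ligase that removes Frizzled from the cell surface, read 4.33, 4.24 and 4.28 in 2lox/2lox hearts and 4.44, 4.28, 4.22, 4.16 and 4.25 in wild-type hearts. Nkd1 read 6.05, 5.99 and 6.12 in 2lox/2lox hearts and 6.01, 6.39, 5.53, 5.99 and 6.21 in wild-type hearts. In Nkd1, as in Rnf43, every mutant heart lay inside the wild-type range.

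The 7 targets above the off-tissue range did not pass the test either. Znrf3, a ligase like Rnf43, read 6.73, 6.96 and 6.65 in 2lox/2lox hearts and 6.69, 6.76, 6.52, 6.57 and 6.57 in wild-type hearts, with mutant heart 2 highest (0.16 ± 0.08, adjusted p = 0.554). Lef1, both a Tcf-family factor and a target, read 7.04, 6.92 and 6.51 in 2lox/2lox hearts and 6.65, 6.96, 6.03, 7.12 and 6.24 in wild-type hearts. Its mutant hearts all lay inside a wide wild-type range (0.22 ± 0.24). Apcdd1, a membrane inhibitor, read 8.65, 8.60 and 8.42 in 2lox/2lox hearts and 8.77, 9.14, 8.23, 8.67 and 7.75 in wild-type hearts. Bambi, a decoy receptor for TGF-β ligands that also touches Wnt signalling, read 10.015, 9.860 and 10.063 in 2lox/2lox hearts and 9.995, 10.329, 9.742, 10.066 and 9.882 in wild-type hearts. In both, every mutant heart lay inside the wild-type range. Tnfrsf19, a receptor of the TNF family, read 8.65, 8.50 and 8.20 in 2lox/2lox hearts and 8.32, 8.38, 8.19, 8.36 and 8.20 in wild-type hearts, with mutant hearts 1 and 2 above the wild-type range (0.16 ± 0.10, adjusted p = 0.607). Ccnd1, the cyclin that starts the cell cycle, read 10.06, 10.02 and 9.70 in 2lox/2lox hearts and 10.01, 9.69, 9.89, 9.93 and 9.76 in wild-type hearts. Myc, a growth regulator, read 7.34, 7.13 and 7.31 in 2lox/2lox hearts and 7.40, 7.36, 7.31, 7.41 and 7.30 in wild-type hearts, and only mutant heart 2 was clearly under the wild-type range (-0.10 ± 0.06, adjusted p = 0.656).

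**Figure D3:**
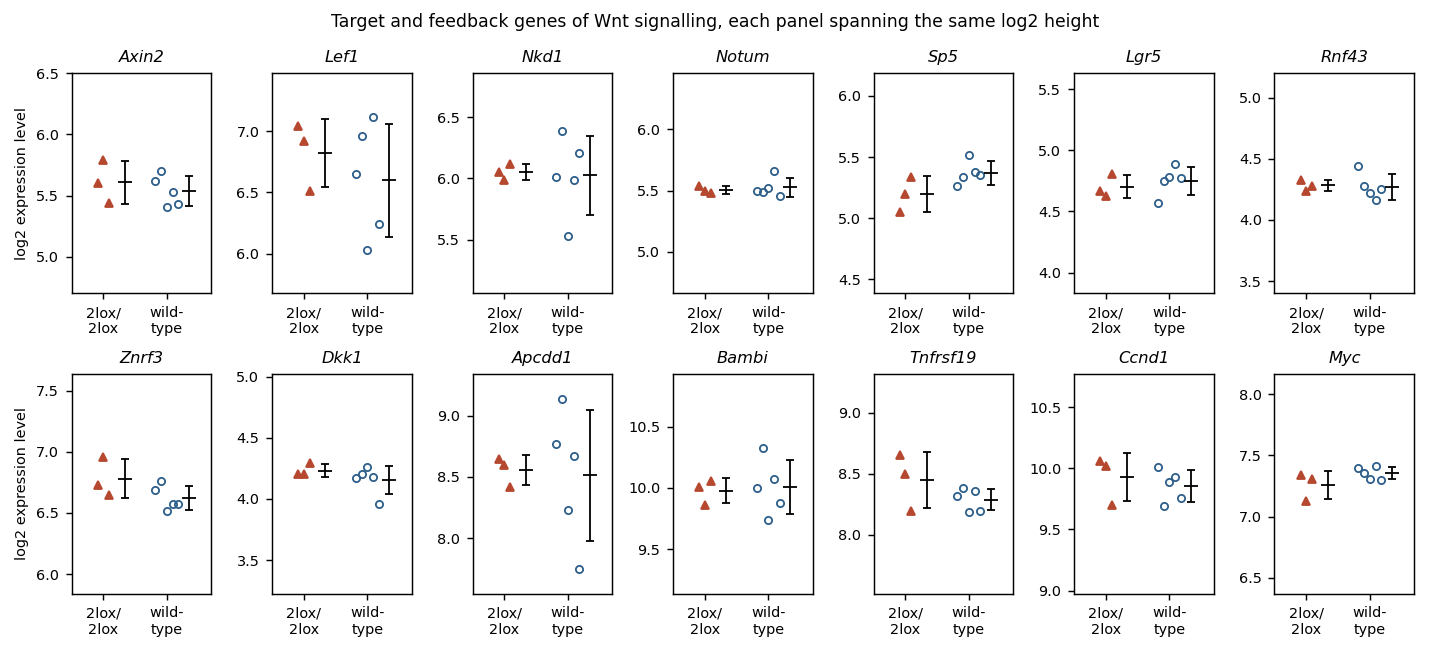
Log2 expression level (y axis) of the 14 target and feedback genes in each 2lox/2lox heart (triangles, left) and wild-type heart (circles, right), with bars at mean ± SD (n = 3 and 5); panels have the same height in log2 units but different positions. In every panel the 2 groups overlap, and Lef1 and Apcdd1 show the widest wild-type spread, 1.09 and 1.38.

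In some members the wild-type hearts differed widely from each other. The range over the 5 wild-type hearts was at least 0.5 (log2) for 16 of 55 members (29.1%) and for 9.6% of all genes. Sfrp2 had a range of 4.20, an 18.4-fold spread that only 6 genes on the array exceeded. Wif1 (1.81), Dkk3 (1.77), Apcdd1 (1.38), Fzd7 (1.24) and Lef1 (1.09) followed, and then Nkd1, Fzd1, Frzb, Wnt4, Kit, Wnt5a, Wnt9b, Bambi, Fzd5 and Fzd4 at 0.86 to 0.52. In 14 of the 16 all 3 mutant hearts lay inside the wild-type range. In Kit and Fzd4, 2 of 3 did. These 16 were chosen for a wide wild-type range, which makes that placing likely in advance. Over all 55 members, 21 had all mutant hearts inside the wild-type range.

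Most of these members shared an order of hearts. Wild-type heart 2 was highest in 11 of the 16 and wild-type heart 3 or 5 lowest in 12, with both true of 10. Over all genes with such a range, 28.3% had heart 2 highest, 43.8% had heart 3 or 5 lowest and 23% had both. These hearts were singled out after the members' values were seen, so an excess of members over these shares was likely in advance. Wild-type heart 2 was also the only wild-type heart with female levels of Xist (10.59, against 4.61 to 4.91 in the others), as 2lox/2lox heart 3 was among the mutants (10.88, against 4.94 and 4.82). The part of sex in this order was not tested. Dkk3 read 8.87, 9.10 and 9.16 in 2lox/2lox hearts, against 9.17, 9.72, 7.95, 9.06 and 8.44 in wild-type hearts. Fzd7, another Frizzled receptor, read 6.99, 7.08 and 7.25 in 2lox/2lox hearts, against 6.92, 7.56, 6.32, 7.39 and 6.83 in wild-type hearts. In both genes heart 2 was the wild-type maximum and heart 3 the minimum, as in Sfrp2. Wif1 did not share this order. It read 4.94, 5.12 and 4.89 in 2lox/2lox hearts and 4.99, 5.22, 5.28, 4.07 and 5.87 in wild-type hearts, with heart 5 highest and heart 4 lowest.

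Some genes of the arterial wall, picked because they share this order, are given beside it as a description. Elastin (Eln) read 11.35, 10.28 and 11.46 in 2lox/2lox hearts and 11.15, 11.73, 7.07, 10.37 and 8.16 in wild-type hearts. Fbln5, which assembles elastic fibres, read 10.56, 9.91 and 11.08 in 2lox/2lox hearts and 10.79, 11.54, 6.61, 10.56 and 8.18 in wild-type hearts. In both, wild-type heart 3 was lowest, heart 5 next and heart 2 highest. These genes were chosen after their values were seen, with Mfap4 and Lox for the arterial wall and Sox9, Twist1, Meox1, Hapln1, Msx1, Postn, Vcan and Tbx20 for cushions and valves. The 4 arterial wall genes averaged 9.52 to 10.37 per 2lox/2lox heart and 7.41 to 10.64 per wild-type heart. The 8 cushion and valve genes averaged 8.76 to 9.16 per 2lox/2lox heart and 8.45 to 9.43 per wild-type heart. None of the 12 passed the test between genotypes. The marker lists that were not picked for this order gave a mixed picture. None of 6 heart muscle and none of 4 endothelial markers had a wild-type range of 0.5 or more. All 4 fibroblast markers did, Pdgfra (9.62, 9.66 and 9.50 in 2lox/2lox hearts, 9.91, 10.31, 9.28, 9.96 and 9.35 in wild-type hearts) and Col3a1 with heart 2 highest and heart 3 lowest, as did Tagln of the 4 smooth muscle markers. All 4 epicardial and all 4 skeletal muscle markers had such a range, with heart 2 highest in 0 of either list. Wild-type heart 3 or 5 was lowest in all 4 skeletal muscle markers and in 0 of the epicardial markers. Of 8 myeloid markers 4 had such a range, and of these Cx3cr1 had heart 2 highest and heart 3 or 5 lowest. The erythroid Alas2 and Slc4a1 had the largest, with heart 2 lowest: Alas2 read 7.11, 7.97 and 9.09 in 2lox/2lox hearts and 7.36, 5.93, 8.02, 9.63 and 8.56 in wild-type hearts. The part of these tissues in the members' values was not tested, and in RNA from a whole heart fewer cells of a type and less RNA per cell cannot be told apart.

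**Figure D4:**
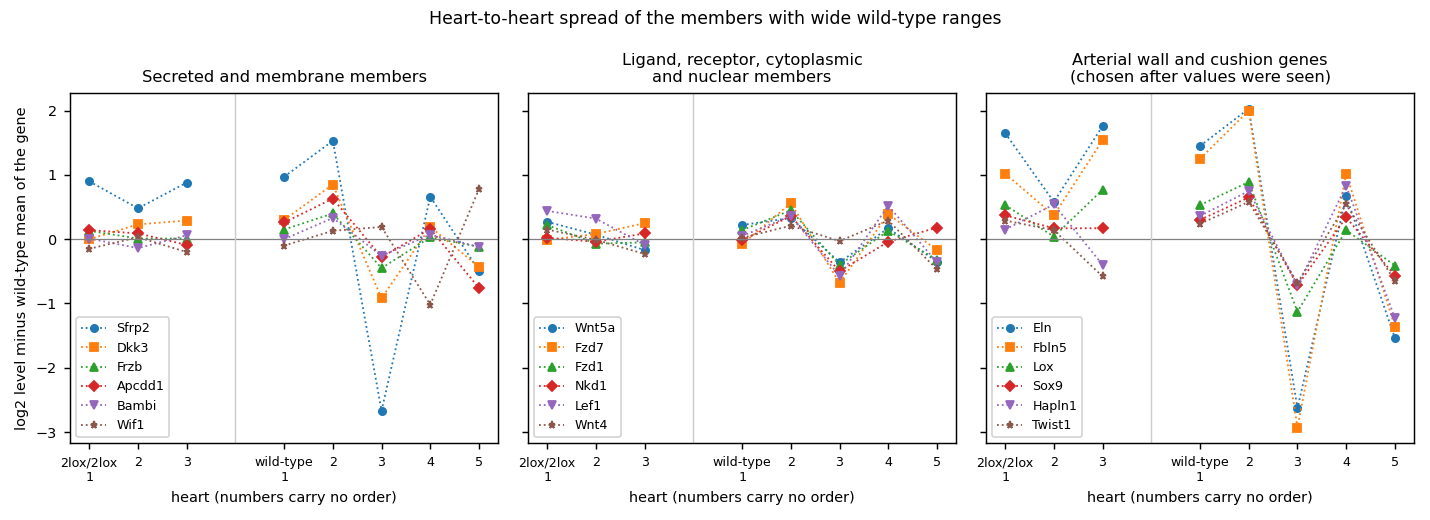
Log2 level minus the gene's wild-type mean (y axis) in each heart (x axis, 2lox/2lox left, wild-type right), for 12 members with wild-type ranges of at least 0.5 and for 6 arterial wall and cushion genes chosen after their values were seen; dotted lines only join the points of 1 gene. In most of these genes wild-type heart 3 or 5 is lowest and heart 2 highest, with Wif1, Wnt4, Lef1 and Hapln1 among the exceptions. The 2lox/2lox hearts stay inside the wild-type range, as is likely for genes shown because that range is wide.

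The other probe sets of members did not always follow the brightest. None of the 67 passed the test (smallest adjusted p 0.243), and 41 had the sign of the brightest probe set while 26 had the other. At an unadjusted p under 0.05, 2 of 67 were higher in 2lox/2lox hearts (2.99%, against 5.97% of all probe sets) and 9 lower (13.4%, against 4.94%), over 8 genes. The share that was lower was thus above that of the array, unlike for the brightest probe sets. The 2lox/2lox hearts lay wholly below the wild-type range in 3 of the 67 (4.48%, against 2.71% of all probe sets) and wholly above it in 0 (3.41% of all).

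Sfrp1 is the clearest case. Probe set 1448395_at read 9.57, 9.39 and 9.12 in 2lox/2lox hearts against 9.02, 9.23, 8.85, 8.98 and 8.97 in wild-type hearts (0.35, adjusted p = 0.306). Probe set 1460187_at read 8.32, 9.04 and 8.86 in 2lox/2lox hearts against 9.67, 9.17, 9.35, 8.97 and 8.92 in wild-type hearts (-0.48, adjusted p = 0.403). Mutant heart 1 was the highest of all 8 hearts in the first and the lowest in the second, so the array gives no single direction for Sfrp1. Apc split likewise. Its brightest probe set changed by 0.12, but the dim 1420957_at read 4.64, 4.56 and 4.68 in 2lox/2lox hearts against 4.86, 4.79, 4.90, 4.86 and 5.06 in wild-type hearts (-0.27, adjusted p = 0.243), wholly under the wild-type range. Probe set 1450056_at of Apc changed by -0.28 and 1420956_at by -0.13. For Tnfrsf19 the brightest changed by 0.16 and the dimmest, 1415921_a_at, by -0.31 (adjusted p = 0.338). Fzd3 held together better, with 1449730_s_at at -0.31 and 1421157_at at -0.15 beside -0.18 in the brightest.

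Mutant hearts 1 and 2 also had the larger 3′ to 5′ control difference (0.52 and 0.5). As it overlaps with genotype, a fit with it as a covariate cannot fully part the 2. With that difference as a covariate, the 2 Sfrp1 probe sets changed by 0.17 and -0.37, and Apc 1450056_at and 1420957_at by -0.04 and -0.23. Of the brightest probe sets, Ryk changed by 0.00, Tnfrsf19 by -0.02 and Apc by -0.01 in that fit, while others moved further from 0: Fzd3 changed by -0.30, Fzd4 by -0.31, Dvl2 by -0.27, Wnt2 by 0.23, Wnt2b by 0.24 and Sfrp2 by 1.39. None passed the adjusted threshold there. Those at an unadjusted p under 0.05 were Fzd3, Fzd4, Dvl2, Wnt2 and Wnt2b, 9.09% of the members against 3.7% of all genes. Where in the transcripts these probe sets lie was not examined, so its part was not tested.

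**Figure D5:**
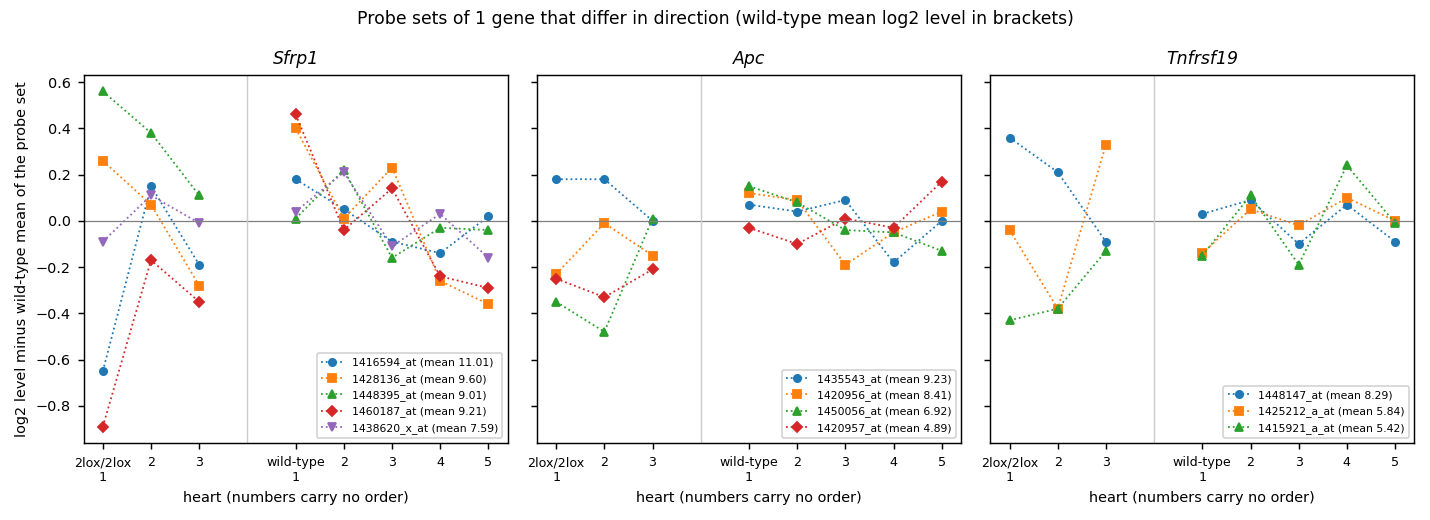
Log2 level minus the probe set's wild-type mean (y axis) in each heart (x axis, 2lox/2lox left, wild-type right) for all probe sets of Sfrp1, Apc and Tnfrsf19; dotted lines only join the points of 1 probe set. In 2lox/2lox heart 1 the Sfrp1 probe sets point both ways (1448395_at up, 1460187_at and the brightest down), and those of Apc and Tnfrsf19 diverge as well.

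The rest of the pathway was checked with 59 further genes, of which 57 had a probe set of their own. None passed the test (smallest adjusted p 0.334), their median change was 0.02, and 31 of 57 were positive. At an unadjusted p under 0.05, 6 of the 57 were higher, a larger share than the 5.82% of all genes. In the other direction 0 were lower, against 4.41% of all genes. This difference in shares was not tested. Daam1, a formin that links Dishevelled to actin, read 10.60, 10.53 and 10.50 in 2lox/2lox hearts and 10.36, 10.36, 10.29, 10.04 and 10.41 in wild-type hearts. It was the 1 gene of the 57 with all mutant hearts above the wild-type range, where 3.16% of all genes lay (0.25 ± 0.08, adjusted p = 0.334). None of the 57 lay wholly below that range, as 2.81% of all genes did. Dact3, an inhibitor that binds Dishevelled, read 9.84, 9.49 and 9.06 in 2lox/2lox hearts and 9.20, 9.08, 9.03, 8.91 and 9.03 in wild-type hearts. Mutant heart 3 lay among the wild-type hearts and hearts 1 and 2 above them (0.41 ± 0.14, adjusted p = 0.340). Without mutant heart 3 the change was 0.61 with an adjusted p of 0.0293, in a fit where 1.77% of all probe sets passed, against 0.0798% with all hearts, and with the control difference as a covariate it was 0.07. Celsr1, a polarity cadherin, read 6.09, 6.04 and 5.71 in 2lox/2lox hearts and 5.77, 5.58, 5.83, 5.56 and 5.63 in wild-type hearts. Btrc, which marks β-catenin for breakdown, read 7.50, 7.46 and 7.34 in 2lox/2lox hearts and 7.31, 7.23, 7.39, 7.25 and 7.10 in wild-type hearts. Ptk7, a co-receptor of polarity signalling, read 7.75, 7.44 and 7.20 in 2lox/2lox hearts and 7.26, 7.37, 7.11, 7.16 and 7.0 in wild-type hearts. In these 3 genes the groups overlapped through mutant heart 3, and mutant hearts 1 and 2 lay above the wild-type range. Those 2 hearts also had the larger 3′ to 5′ control difference, which overlaps with genotype. Isl1, a factor of second heart field progenitors, read 5.19, 5.18 and 5.51 in 2lox/2lox hearts and 5.39, 5.53, 4.86, 5.66 and 5.25 in wild-type hearts, all mutants within the wild-type range (-0.04 ± 0.16, adjusted p = 0.960).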

How the data were processed

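RNA of 8 hearts was hybridized by the authors to Affymetrix Mouse430 arrays. The values are log2 expression levels, deposited after the authors' normalization between arrays; how background was corrected and probes were summarized is not given in these sources and bears most on dim probe sets. In the submitters' processing notes limma is listed, with no version. All 45101 probe sets were fitted unchanged with limma 3.58.1 under R 4.3.3, by lmFit and plain eBayes (neither trend nor robust), for the difference of 2lox/2lox from wild-type. The p-values were two-sided and adjusted over the whole array by Benjamini and Hochberg's method, and 0.05 was the threshold. The number of arrays limits the precision. Groups came from the labels, and no column of values was left out.

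Genes were named from the platform annotation, updated to a RefSeq table (GRCm38.p6), which gave 34958 probe sets 1 gene (99.4% matched), 932 several and 9211 none. No coordinates from that table are printed; those of the promoter stretches come from a separate RefSeq table of sequences of the same build. The members and lists were chosen with earlier results of these data known. Values in every heart are given, by rule, for the 10 members with the smallest p, Wnt11, Lrp6 and Kit, the 14 target and feedback genes, the brightest member of each role group, and, of the further pathway genes, the 5 with the smallest p and Isl1; values of Sfrp2, Dkk3, Fzd7, Wif1 and of arterial wall and cushion genes were added after they were seen. Alternatives were other normalizations, moderation, filters, covariates, gene means, the replicate number as a block, and leaving out each heart.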

Additional observations from a re-analysis of the deposited data

Results flagged for a closer look

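Kit in wild-type heart 4 stood apart from the other wild-type hearts. It read 6.66, against 7.23 in the nearest and 7.36 in the highest of the others, so the gap took up 0.805 of the group's range, where 0.71 is the limit for 5 samples. Chance gives such a mark in about 1 of 20 groups, and 55 members were examined. Among the members with a wild-type range of at least 0.5, heart 4 was also the lowest wild-type heart in Wif1, Fzd4 and Fzd5. It was lowest in members with narrower ranges too, such as Apc, Ryk and Sfrp1. Without wild-type heart 4 the change of Kit was -0.11 (adjusted p = 0.796).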

How the results depend on the processing

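The count of members past the adjusted threshold was 0 under all 20 other fits and with the fold limit of 1.4, and the smallest adjusted p of any member in any of them was 0.118 (Tnfrsf19 without 2lox/2lox heart 3). Members at an unadjusted p under 0.05 numbered 1 in the reported fit, 0 with an intensity trend, 2 with quantile normalization and with median centring, 3 with gene means, 5 with the control difference as a covariate (9.09% of members, against 3.7% of all genes), and 1 to 6 when leaving out 1 heart. The 6 (10.9% of members) came without 2lox/2lox heart 2, where 7.83% of all genes did so, and without heart 3, where 14.2% did. Members wholly outside the wild-type range numbered 1, where 5.97% of all genes lay on the deposited values. They numbered 2 with quantile normalization (3.64% of members), 0 with median centring and 3 with gene means (5.45%). When leaving out 1 heart they numbered 1 to 10. The 10 (18.2% of members, without 2lox/2lox heart 3) stand beside 18.7% of all genes and the 6 without heart 2 beside 11.5%. Leaving out wild-type hearts 3 and 5, chosen after seeing the data, gave 3 members at p under 0.05 (Dvl2, Fzd3 and Apcdd1, 5.45% of members against 11.6% of all genes), 8 outside the range (14.5% of members, against 16.1% of all genes) and a median change of -0.04; when leaving out 1 heart that median was -0.01 to 0.05. Of the further pathway genes past the threshold there were 0 to 1 when leaving out 1 heart (Dact3 without 2lox/2lox heart 3, where 1.77% of all probe sets passed). Taking the highest off-tissue gene rather than the lower quartile as the level to exceed moved the number of members above it to 32, against 54. The sign of 32 members changed in at least 1 alternative and that of 23 in none. With the replicate number as a block, 6 members reached p under 0.05 (10.9%, against 7.23% of all genes). In that fit 0 members passed the threshold, and 0 of all probe sets did. The deviations of same-numbered hearts from their group means correlated at 0.01, -0.08 and -0.05, so the numbers do not pair the hearts. No 2lox/2lox heart correlated best with the wild-type heart of its own number. Dim probe sets, which may lie near background, limit what the array can show for Dkk1, Rnf43, Lgr5 and other members within the off-tissue range.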
